A study of Homo sapiens with 16 samples.

Results

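This report describes 46 genes of hypoxia and glycolysis among the 39007 gene symbols of an RNA-sequencing table of T24 bladder cancer cells and the gemcitabine-resistant line GRC1 made from them. The genes were chosen by name: the hypoxia-inducible factors (HIF) and their oxygen sensors, known hypoxia targets, collagen-modifying enzymes, glycolytic enzymes, and the transporters of glucose and lactate. Earlier results of these data were known when they were chosen. T24 is an established human bladder carcinoma line, and gemcitabine is a deoxycytidine analog that blocks DNA synthesis. The 16 libraries fall into 4 phases of 4 libraries each, namely untreated parental cells (P0) and GRC1 cells after 3 (P3), 7 (P7) or 15 (P15) rounds of gemcitabine exposure and regrowth. All cells were grown in the same serum-containing medium, and none of the labels names a low-oxygen culture. GRC1 is 1 selected line, and nothing says that the 4 libraries of a phase came from separate cultures, so that the p-values measure the spread between these libraries, which may be technical.

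In normal oxygen, prolyl hydroxylases of the EGLN family mark the HIF alpha subunits for destruction by the VHL ubiquitin ligase. When oxygen is low, the alpha subunits HIF1A and EPAS1 pair with ARNT and switch on genes for glucose uptake, glycolysis, lactate production, blood vessel growth and collagen maturation. Many tumour cells also run glycolysis at a high rate in normal oxygen. The control of HIF alpha by oxygen acts on the protein, which RNA levels do not measure.

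Values are log2 of CPM plus 1, as deposited, where CPM is the read count of a gene scaled to the total of its library, and a level below is on this scale unless CPM or CPM per kb is named. Library totals were estimated at 33.6 to 50.0 M counts, at which a single count is at most 0.0298 CPM. A gene is said to rise or fall where limma, fitted to all 13249 genes that averaged more than 1 CPM, gave an adjusted p below 0.05. Of the 46 genes, 45 passed that filter on the mean. The exception was CA9, a surface carbonic anhydrase, whose levels were 0.21, 0.47, 0.08 and 0.08 at P0, 0.45, 0.68, 0.31 and 0.47 at P3, 0.84, 0.78, 1.22 and 1.09 at P7, and 0.32, 1.19, 1.93 and 0.95 at P15. The 4 P7 libraries of CA9 lay above those of P0 and P3, while the P15 libraries overlapped those of each other phase, and none of this was tested. CA12, EGLN3 and ANKRD37 were also low, with means of 1.21, 1.44 and 4.04 CPM over all libraries. In bulk RNA, fewer cells that express a gene and less RNA per cell cannot be told apart.

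The cell identity markers moved along with the phases. The summed level of 11 epithelial and urothelial markers was 2080 to 2150 CPM at P0, 2350 to 2480 at P3, 1670 to 1810 at P7 and 674 to 751 at P15, with KRT7, KRT8 and KRT18 as its main members. From P0 to P15, KRT18 rose by 0.425, while KRT7, KRT8, KRT19 and EPCAM fell by 6.26, 3.06, 6.41 and 1.82 on the log2 scale. CDH1, KRT5, UPK1B and UPK3A were at or near 0 in each phase. Summed fibroblast markers, led by COL1A1 and COL3A1, went from 7.08 to 8.34 CPM at P0 to 46.6 to 51.7 CPM at P15, while DCN and LUM stayed near 0. The sums of 5 endothelial and 7 immune markers were at most 8.56 CPM in any library, with CDH5 and CD14 as the largest at P0 and PTPRC, CD3E and HBB at or near 0. The part of these marker shifts in the results below was not tested.

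Single libraries stood apart for these genes within their phase. P0 replicate 2 held the highest P0 value for 32 of the 45 tested genes, against 30.7% of all tested genes, and lay a median of 0.117 above the other 3 libraries on the log2 scale. P15 replicate 3 was the highest P15 library for 26 genes (38.8% of all tested genes), and P15 replicate 1 was the lowest for 28 (23.6%). P7 replicate 2, the deepest library, was the lowest of P7 for 28 genes (22.6%). P3 replicate 2 was the highest of P3 for 21 genes (27.7%). Without P0 replicate 2 and P15 replicate 3, chosen after the data were seen, the numbers of genes that rose and fell were 35 and 9 at P3 against P0, 28 and 4 at P7 against P3, 10 and 32 at P15 against P7, and 19 and 24 at P15 against P0. With all libraries they were 35 and 9, 27 and 4, 11 and 32, and 20 and 24, so each count moved by at most 1.

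**Figure D1:**
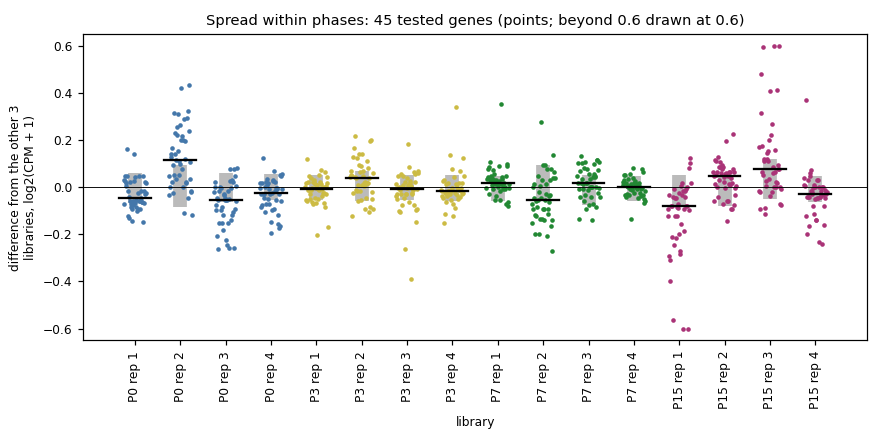
Difference of each tested hypoxia or glycolysis gene in a library from the mean of the other 3 libraries of its phase, on the log2(CPM + 1) scale (vertical axis), for each of the 16 libraries (horizontal axis). Points are the 45 genes, drawn at the edge where they exceed 0.6, black bars are their medians and grey bars the middle 50% of all tested genes. The medians of P0 replicate 2 (0.117) and P15 replicate 3 (0.077) lie above 0 and that of P15 replicate 1 (-0.08) lies below.

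HIF dimers bind DNA at a short core, ACGTG, so the bases before the start of 4 of the genes are printed here. RefSeq windows of 300 bases around the transcription start (GRCh38.p14, 250 bases before and 50 after) matched 39 of the 46 genes with 69 windows, and the genes not matched were BNIP3L, NDRG1, VHL, STC1, LOXL2, SLC16A1 and SLC2A3. ACGTG on either strand occurred in 28 of the 69 windows (40.6%), against 21.4% of all 35116 windows. Of the 14 genes with a window among those that rose, rose and then fell over the 3 steps described below, 10 (71.4%) held it in at least 1 window, against 24.9% of all genes, and by window this was 12 of 23 (52.2%). The set was chosen to hold known hypoxia targets, so a larger share of the HIF core is partly built into that choice. All genes here are the 27305 symbols with a window, expressed or not. Shares by gene also depend on the windows per gene, which differ (23 for 14 genes, 35116 for 27305). The core overlaps the E-box CACGTG, which many other factors bind and which counts here as a match on each strand. That E-box occurred in 8 of the 69 windows of the set (11.6%), against 7.26% of all windows. Of the 23 windows of the genes that rose, rose and then fell, 3 held the E-box. The part of the E-box in the larger share of the core was not tested. A match is a description of the letters and does not show that a factor binds.

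Printed first are the 3 genes of that pattern with the most matches before the start, where BNIP3 was taken over others with 2 matches for its larger fall at P15, and then HK2, which stayed high at P15. Each start is a single RefSeq start, and for a gene with several windows the window with the most matches was printed. The sequences are therefore not typical of the starts of these genes. The sequences are the 250 bases before the start, 5′ to 3′ along the gene, in lower case with each ACGTG or its reverse complement CACGT in capitals. They lie at chr11:18394313-18394562 on the plus strand (LDHA), chr5:122078260-122078509 on the minus strand (LOX), chr10:131981924-131982173 on the minus strand (BNIP3) and chr2:74834920-74835169 on the plus strand (HK2).
LDHA: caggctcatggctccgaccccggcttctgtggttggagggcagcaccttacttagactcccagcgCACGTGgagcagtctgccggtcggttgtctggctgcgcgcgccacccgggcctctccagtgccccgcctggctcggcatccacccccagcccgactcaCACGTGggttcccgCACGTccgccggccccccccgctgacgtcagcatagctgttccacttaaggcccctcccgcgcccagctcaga
LOX: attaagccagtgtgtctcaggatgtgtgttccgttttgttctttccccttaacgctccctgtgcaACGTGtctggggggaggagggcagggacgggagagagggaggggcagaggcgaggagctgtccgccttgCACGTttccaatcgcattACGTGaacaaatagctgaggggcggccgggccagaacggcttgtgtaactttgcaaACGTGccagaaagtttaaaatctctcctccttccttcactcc
BNIP3: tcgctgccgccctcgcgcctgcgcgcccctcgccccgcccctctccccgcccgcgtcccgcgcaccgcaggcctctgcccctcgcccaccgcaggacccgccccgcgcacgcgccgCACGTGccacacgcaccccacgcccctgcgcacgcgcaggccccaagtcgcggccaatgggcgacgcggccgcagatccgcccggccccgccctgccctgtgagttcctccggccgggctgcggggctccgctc
HK2: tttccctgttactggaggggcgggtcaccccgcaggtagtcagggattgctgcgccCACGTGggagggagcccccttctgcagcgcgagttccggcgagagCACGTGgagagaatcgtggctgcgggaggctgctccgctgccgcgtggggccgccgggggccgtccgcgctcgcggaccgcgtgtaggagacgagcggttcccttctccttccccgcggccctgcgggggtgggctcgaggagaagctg
The first match in LDHA begins 185 bases before the start and the last 73 bases before it. The 4 matches in LOX begin 185, 116, 98 and 42 bases before the start. By the gene annotation, LOX begins on the minus strand at chr5:122078413, so the matches at 116, 98 and 42 lie inside the annotated gene. BNIP3 holds a single E-box, which counts as 2 matches. HK2 holds 2 E-boxes, 194 and 149 bases before the start. The annotated HK2 gene begins at chr2:74834127, so its whole printed window, with both E-boxes, lies inside the gene.

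Taken over the whole set, these genes rose at P3 and P7 and fell at P15. At P3 against P0, 35 of the 45 tested genes rose, where 31.4% of all tested genes did, and 9 fell (37.3% of all). At P7 against P3, 27 rose (30.3% of all) and 4 fell (28.0% of all). At P15 against P7 the direction turned, with 11 genes up (46.3% of all) and 32 down (40.1% of all). The net result at P15 against P0 was 20 genes up (45.3% of all) and 24 down (40.9% of all), which as shares of the 45 genes are 44.4% and 53.3%. The median log2 difference of the set over the 3 steps was 0.44, 0.18 and -0.86, against -0.03, 0.01 and 0.06 for all tested genes, and -0.12 against 0.04 from P0 to P15.

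With a difference of at least 2-fold required as well, 11 genes rose at P3 against P0 (1.95% of all tested genes did) and 1 fell (2.51%). At P7 against P3 the count was 2 up (0.996%) and 0 down (0.845%), at P15 against P7 it was 2 up (13.4%) and 19 down (12.1%), and at P15 against P0 it was 6 up (12.2%) and 10 down (11.5%). The 11 genes of the early rise were ADM, ANGPTL4, BNIP3, ENO2, HK2, NDRG1, P4HA1, PDK1, PLOD2, SLC2A3 and STC1. LOXL2 was the gene that fell. The gains of P7 were those of ALDOC and LOX. At P15 against P0 the 6 were ANGPTL4, ANKRD37, HK2, NDRG1, PFKM and STC1, and the 10 were ADM, ALDOC, BNIP3, EGLN3, EPAS1, LOX, PGAM1, PKM, PLOD2 and SLC2A3.

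**Figure D2:**
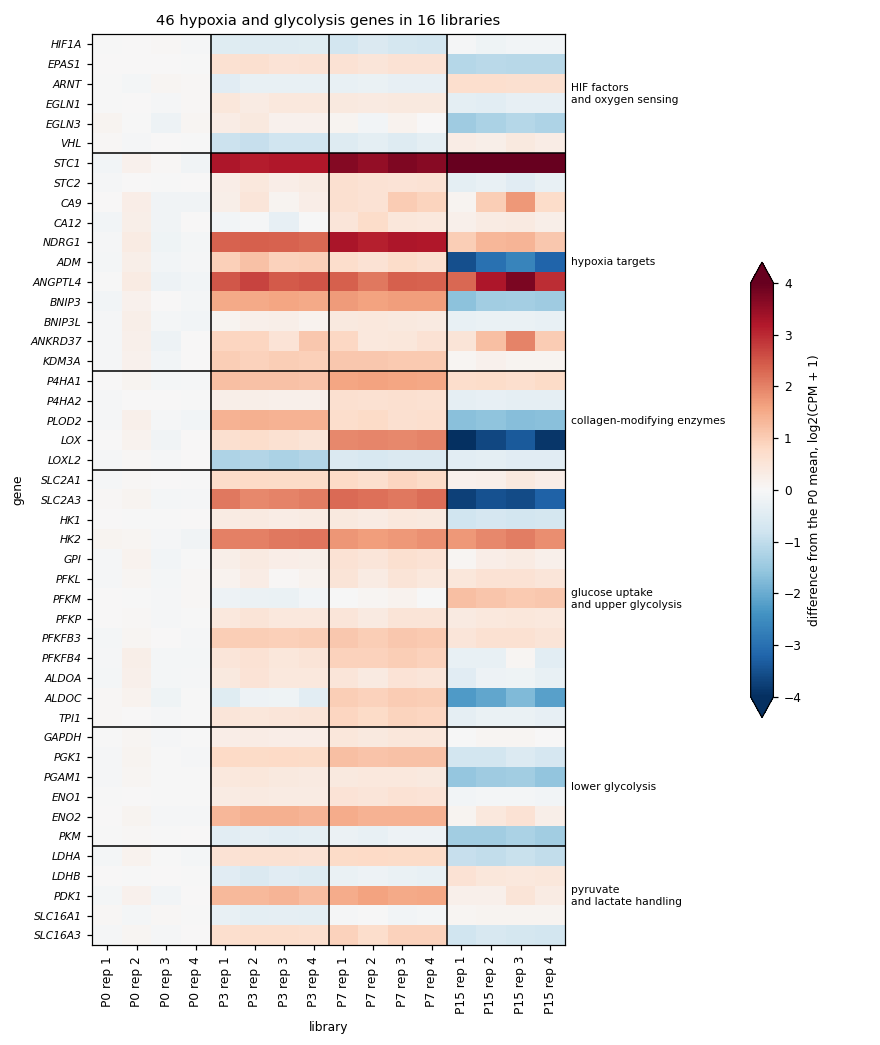
Heat map of the 46 genes (rows, grouped by role) in the 16 libraries (columns, 4 per phase), coloured by the difference from the mean of the 4 P0 libraries on the log2(CPM + 1) scale. Colours saturate at 4, which STC1 exceeds at P15 (5.42); most rows are red at P3 and P7, and P15 splits into rows that stay red and rows that turn blue.

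Over the 3 successive steps, 17 genes rose, rose again and fell (37.8% of the tested set, against 3.33% of all tested genes). They were BNIP3, BNIP3L, ENO1, GAPDH, GPI, LDHA, LOX, NDRG1, P4HA1, P4HA2, PDK1, PFKFB4, PGK1, SLC16A3, SLC2A3, STC2 and TPI1. The first rise of ENO1 and GAPDH did not hold under quantile normalization. The second rise of BNIP3 and SLC2A3 was near the threshold (adjusted p = 0.033 and 0.043) and was lost when any of several libraries was left out. Both calls were also lost with no filter on low values or with no variance trend. Another 10 rose, did not pass the test at P7 and fell, namely ALDOA, EGLN1, EGLN3, ENO2, EPAS1, HK1, KDM3A, PFKFB3, PGAM1 and SLC2A1 (22.2%, against 5.65% of all). STC1 rose in all 3 steps, as did 0.936% of all tested genes. The opposite start, a fall at P3 followed by 2 rises, was seen for LDHB, LOXL2, PFKM, SLC16A1 and VHL (11.1%, against 9.85% of all).

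Intermediate phase P7 was the peak for the largest share of the set. Here 19 genes were higher than in each other phase (7.43% of all tested genes were) and HIF1A was lower (7.3%). P15 was the highest phase for 7 genes (37.2%), ANGPTL4, ARNT, LDHB, PFKM, SLC16A1, STC1 and VHL, and the lowest for 22 (32.3%). P0 was the highest for HIF1A, LOXL2 and PKM (3 genes, 10.8%) and the lowest for 14 (8.91%). P3 was the highest for ADM, HK2 and PLOD2 (3 genes, 10.3%) and the lowest for 5 (12.5%).

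**Figure D3:**
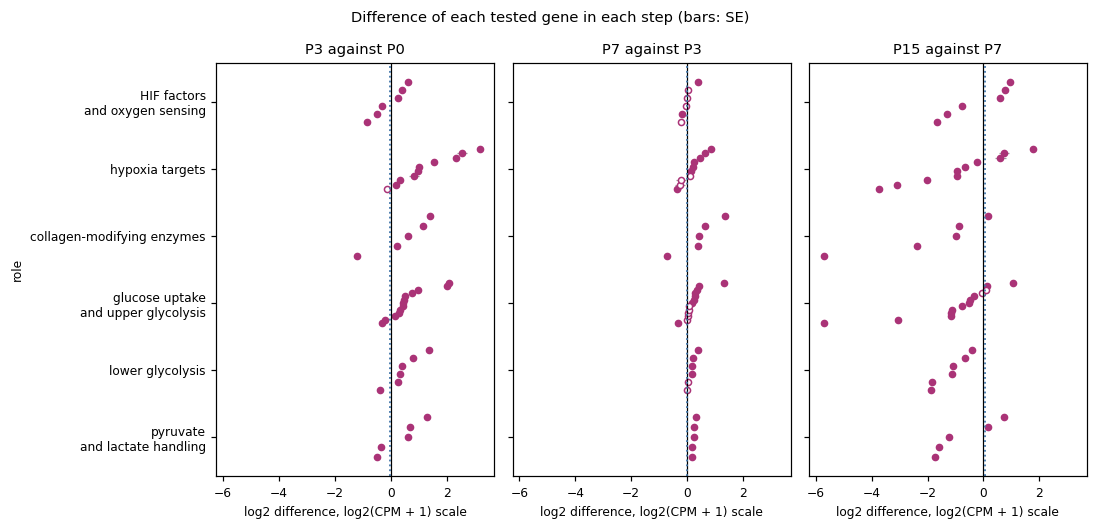
Log2 difference of each tested gene (horizontal axis, log2(CPM + 1) scale, bars are standard errors) in the steps P0 to P3, P3 to P7 and P7 to P15, by role (vertical axis). Filled points passed an adjusted p of 0.05, open points did not, and the dotted line is the median of all tested genes. In the last step all 6 lower glycolytic genes lie left of 0, where 40.1% of all tested genes fell.

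The transcripts of the 2 HIF alpha subunits moved in opposite directions in the first and last steps. HIF1A measured 8.40, 8.45, 8.46 and 8.38 at P0, 7.93, 7.91, 7.92 and 7.94 at P3, 7.68, 7.83, 7.71 and 7.69 at P7 and 8.37, 8.25, 8.31 and 8.30 at P15. It fell by 0.50 at P3 and by 0.20 at P7, and then rose by 0.58 at P15 (adjusted p = 4.3e-12, 2.4e-05 and 4.1e-14), which left it 0.12 below P0 (adjusted p = 0.003). EPAS1, the alpha subunit also called HIF2A, measured 8.17, 8.15, 8.15 and 8.13 at P0, 8.76, 8.80, 8.71 and 8.72 at P3, 8.74, 8.64, 8.72 and 8.73 at P7 and 7.02, 7.08, 7.03 and 7.05 at P15. It rose at P3 by 0.60 ± 0.03 (SE, adjusted p = 9.9e-15) and fell at P15 against P7 by 1.66 on the log2 scale (adjusted p = 1.5e-24), with P3 and P7 overlapping. Each HIF1A step and both of these EPAS1 steps separated the libraries without overlap.

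Among the partners and sensors, ARNT, the shared beta subunit, measured 5.60, 5.53, 5.68 and 5.66 at P0, 5.16, 5.33, 5.33 and 5.32 at P3, 5.32, 5.34, 5.28 and 5.30 at P7 and 6.29, 6.28, 6.27 and 6.26 at P15. Its P15 value was the highest of the 4 phases, 0.66 ± 0.04 (SE, adjusted p = 4e-13) above P0. EGLN1, the main prolyl hydroxylase, measured 6.25, 6.27, 6.23 and 6.32 at P0, 6.71, 6.60, 6.69 and 6.68 at P3, 6.67, 6.64, 6.66 and 6.67 at P7 and 5.88, 5.86, 5.95 and 5.93 at P15, following the same course as EPAS1. EGLN3, a hydroxylase that is itself a hypoxia target, measured 1.54, 1.40, 1.22 and 1.51 at P0, 1.71, 1.80, 1.60 and 1.59 at P3, 1.54, 1.31, 1.56 and 1.43 at P7 and 0.00, 0.16, 0.29 and 0.18 at P15, so that it was close to 0 in each P15 library and at 0 in replicate 1. In CPM, the EGLN3 mean fell from 1.76 at P7 to 0.118 at P15. The small rise of EGLN3 at P3, 0.26 ± 0.10 (SE, adjusted p = 0.024), did not pass without P0 replicate 3 (0.19, adjusted p = 0.1), P3 replicate 1 (0.25, adjusted p = 0.052) or P3 replicate 2 (0.22, adjusted p = 0.079). VHL fell at P3 by 0.86 and rose in both later steps, ending 0.31 ± 0.04 (SE, adjusted p = 1.9e-07) above P0. By the annotation, other genes share 55.8% of the exon bases of EGLN1 and 23.5% of those of VHL, and the strand setting of the counting is not given.

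The hypoxia targets mostly rose at first and ended on both sides of P0. Of the 10 tested, 9 rose at P3 (31.4% of all tested genes did) and none fell, and CA12 gave -0.13. At P15 against P0, 6 rose and 4 fell (45.3% and 40.9% of all tested genes did), with a range from -3.09 to 5.42. STC1, the secreted glycoprotein stanniocalcin, measured 3.66, 3.95, 3.83 and 3.64 at P0, 7.01, 6.90, 6.98 and 6.96 at P3, 7.45, 7.29, 7.50 and 7.41 at P7 and 9.13, 9.25, 9.25 and 9.13 at P15. It rose by 3.19 ± 0.06 (SE, adjusted p = 7.1e-23) at P3, by 0.45 ± 0.06 (SE, adjusted p = 2.6e-07) at P7 and by 1.78 ± 0.06 (SE, adjusted p = 1.3e-19) at P15, with no overlap between any phases. In CPM its mean went from 12.7 to 124, 170 and 584, a 46-fold difference between P15 and P0. STC1 belongs to the genes that the study selected on these libraries, so its rise is not independent evidence of that choice.

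Other targets with large early gains differed in how they ended. NDRG1, a stress-responsive gene of growth control, measured 5.94, 6.32, 5.82 and 5.93 at P0, 8.35, 8.38, 8.35 and 8.29 at P3, 9.28, 9.11, 9.24 and 9.22 at P7 and 6.98, 7.34, 7.36 and 7.09 at P15. Its rise of 2.34 at P3 and of 0.87 at P7 was followed by a fall of 2.02 at P15, where it was still 1.19 ± 0.08 (SE, adjusted p = 8.5e-13) above P0. ANGPTL4, a secreted inhibitor of lipoprotein lipase, measured 2.92, 3.26, 2.74 and 2.81 at P0, 5.41, 5.62, 5.40 and 5.46 at P3, 5.31, 5.04, 5.33 and 5.29 at P7 and 5.22, 6.16, 6.71 and 5.87 at P15. It rose by 2.54 ± 0.18 (SE, adjusted p = 8.4e-12) at P3 and by 0.75 ± 0.18 (SE, adjusted p = 0.00045) from P7 to P15, although its P15 libraries spread over 1.49 log2 units and overlapped those of P7. ANKRD37, an ankyrin repeat protein, gained 0.83 at P3 and was 1.18 above P0 at P15, with P15 levels between 2.11 and 3.56. Exons of UFSP2 overlap 40.3% of the exon bases of ANKRD37, and ARHGEF39 overlaps 35.7% of those of CA9.

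ADM, which encodes the vasodilator peptide adrenomedullin, measured 6.12, 6.45, 6.10 and 6.18 at P0, 7.18, 7.38, 7.14 and 7.17 at P3, 6.91, 6.78, 6.95 and 6.85 at P7 and 2.70, 3.22, 3.57 and 3.00 at P15. It was the target that fell most, by 3.75 at P15 against P7 (adjusted p = 5.7e-20), and its P15 mean of 7.92 CPM compares with 73.5 CPM at P0. BNIP3, a receptor for the removal of mitochondria, had means of 6.98 ± 0.12 at P0, 8.51 ± 0.03 at P3, 8.64 ± 0.03 at P7 and 5.54 ± 0.12 at P15 (SD, n = 4 libraries). It rose by 1.53 ± 0.05 (SE, adjusted p = 9.4e-18) and then fell by 3.10 from P7 to P15 (adjusted p = 5.7e-25), ending below P0. The rise of BNIP3 between P3 and P7, 0.13 ± 0.05 (SE, adjusted p = 0.033), was lost without any of P3 replicates 1, 2 and 4 or P7 replicates 1, 3 and 4, at 0.12 to 0.13 with adjusted p from 0.057 to 0.078.

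Its relative BNIP3L and the glycoprotein gene STC2 followed the same course with smaller steps, between -0.95 and 0.32. KDM3A, a histone demethylase, rose by 0.96 at P3 and fell by 0.95 at P15. It stayed 0.11 ± 0.05 (SE, adjusted p = 0.025) above P0, a call that was lost without P0 replicate 1 (0.09, adjusted p = 0.083), P0 replicate 3 (0.075, adjusted p = 0.13) or P15 replicate 2 (0.10, adjusted p = 0.07). CA12, a membrane carbonic anhydrase near 1 CPM, rose at P7 by 0.65 ± 0.10 (SE, adjusted p = 1.1e-05). Its fall at P15 against P7, -0.24 ± 0.10 (SE, adjusted p = 0.035), was lost without P7 replicate 2 (-0.17, adjusted p = 0.14), P15 replicate 1 (-0.21, adjusted p = 0.09) or P15 replicate 4 (-0.22, adjusted p = 0.08), and its rise against P0 of 0.28 was lost without P0 replicate 3 (0.24, adjusted p = 0.052).

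**Figure D4:**
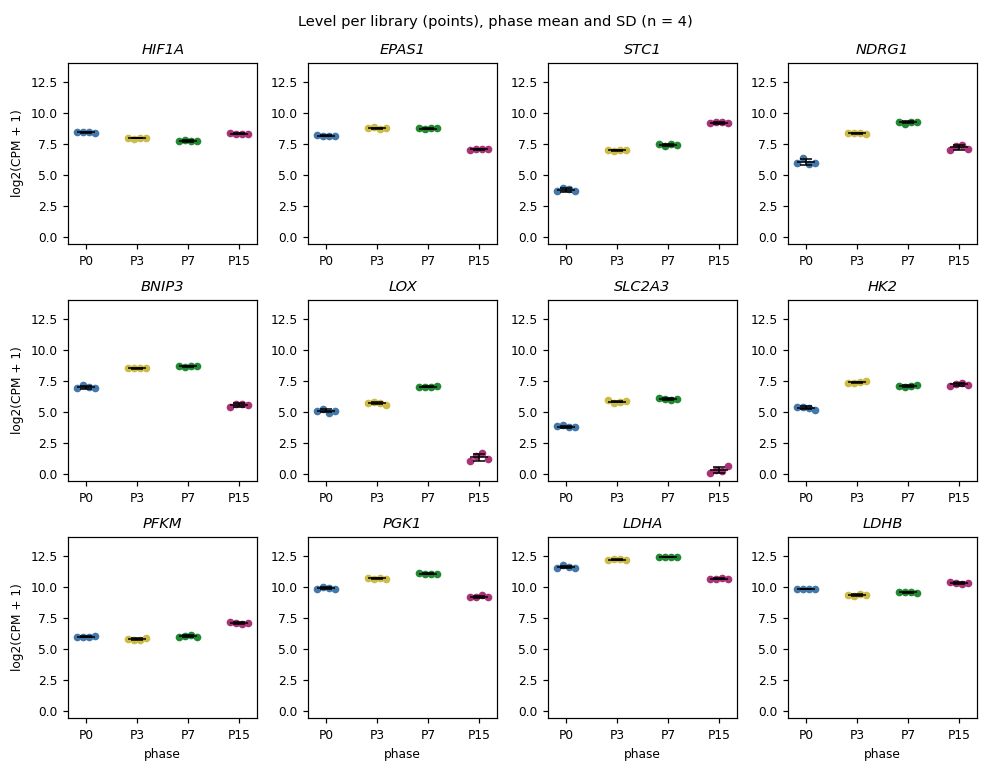
Level of 12 of the genes in each library (points, log2(CPM + 1) on the vertical axis) by phase (horizontal axis), with the phase mean and SD of 4 libraries in black. STC1 rises to 9.19 at P15, LOX and SLC2A3 drop to 1.32 and 0.29 there, and LDHA falls while LDHB rises.

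Collagen-modifying enzymes are classical HIF targets, and 4 of the 5 fell from P7 to P15, where 40.1% of all tested genes did. LOX, the secreted oxidase that crosslinks collagen and elastin, measured 5.07, 5.18, 4.90 and 5.07 at P0, 5.69, 5.77, 5.67 and 5.56 at P3, 6.99, 7.02, 6.98 and 7.05 at P7 and 1.02, 1.40, 1.68 and 1.17 at P15. It gained 1.34 ± 0.09 (SE, adjusted p = 1.3e-11) from P3 to P7 and lost 5.69 from P7 to P15 (adjusted p = 2.4e-25), which is from 128 to 1.53 CPM. P4HA1, the catalytic subunit of prolyl 4-hydroxylase, measured 6.26, 6.35, 6.17 and 6.19 at P0, 7.44, 7.40, 7.41 and 7.39 at P3, 7.82, 7.86, 7.82 and 7.80 at P7 and 6.96, 6.99, 6.90 and 7.01 at P15, and it was the only enzyme of these 5 that ended above P0, by 0.72 ± 0.04 (SE, adjusted p = 2e-15). Its sister subunit gene P4HA2 ended 0.34 below P0. PLOD2, a lysyl hydroxylase, rose by 1.40 ± 0.04 (SE, adjusted p = 3e-18) at P3, then fell by 0.70 at P7 and fell by 2.36 at P15, to end at 6.53 ± 0.03 (SD, n = 4 libraries). LOXL2, a relative of LOX, moved opposite to PLOD2 in each step. It fell by 1.21 at P3, rose by 0.62 at P7 and by 0.16 at P15, and ended 0.425 below P0.

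The glucose transporters parted at P15. SLC2A1, the widely expressed glucose transporter GLUT1, measured 7.76, 7.85, 7.83 and 7.81 at P0, 8.54, 8.62, 8.59 and 8.57 at P3, 8.61, 8.47, 8.66 and 8.59 at P7 and 7.97, 8.02, 8.19 and 8.07 at P15. SLC2A3, the high-affinity transporter GLUT3, measured 3.83, 3.89, 3.72 and 3.73 at P0, 5.90, 5.72, 5.79 and 5.83 at P3, 6.06, 6.0, 5.90 and 6.04 at P7 and 0.07, 0.30, 0.22 and 0.57 at P15. Both rose at P3, by 0.77 and 2.02, but at P15 SLC2A1 stayed 0.25 ± 0.04 (SE, adjusted p = 5.7e-06) above P0, while SLC2A3 dropped from 63.1 CPM at P7 to 0.233 CPM. Because 1 CPM is added before the log, the fitted fall of SLC2A3 at P15, 5.71, understates the 271-fold difference of the mean CPM. Without P15 replicate 4, the highest of its phase, the P15 mean was 0.149 CPM and the difference 425-fold. The rise of SLC2A3 between P3 and P7, 0.19 ± 0.08 (SE, adjusted p = 0.043), was lost without any of P3 replicates 2, 3 and 4 or P7 replicates 1, 2 and 4 (0.16 to 0.20, adjusted p from 0.064 to 0.12).

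Hexokinases trap glucose in the cell as a phosphate. HK1, the constitutive form, measured 8.82, 8.77, 8.78 and 8.81 at P0, 9.13, 9.16, 9.10 and 9.12 at P3, 9.18, 9.13, 9.22 and 9.20 at P7 and 7.99, 8.11, 8.05 and 8.09 at P15, with a fall of 1.12 in the last step. HK2, the inducible form, measured 5.41, 5.38, 5.27 and 5.16 at P0, 7.32, 7.33, 7.40 and 7.43 at P3, 7.07, 6.99, 7.05 and 7.12 at P7 and 7.04, 7.22, 7.34 and 7.15 at P15, and thus it held a rise of 1.88 ± 0.05 (SE, adjusted p = 3.2e-20) from P0 to P15 with no overlap. Its small increase from P7 to P15, 0.13 ± 0.05 (SE, adjusted p = 0.029), had overlapping libraries and was lost without P7 replicate 2 (0.11, adjusted p = 0.091), P7 replicate 3 (0.13, adjusted p = 0.051), P15 replicate 2 (0.12, adjusted p = 0.068) or P15 replicate 3 (0.08, adjusted p = 0.15).

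Phosphofructokinase, which commits sugar to glycolysis, has 3 subunit genes. PFKL, the liver form, measured 6.43, 6.56, 6.41 and 6.52 at P0, 6.62, 6.79, 6.53 and 6.62 at P3, 7.00, 6.82, 6.98 and 6.90 at P7 and 6.93, 7.05, 7.06 and 6.97 at P15. PFKM, the muscle form, measured 5.97, 5.94, 5.91 and 5.99 at P0, 5.76, 5.71, 5.68 and 5.84 at P3, 5.94, 6.03, 6.08 and 5.95 at P7 and 7.14, 7.06, 7.01 and 7.04 at P15, and it was the only glycolytic enzyme gene of the set that gained at least 2-fold between P7 and P15, by 1.06 ± 0.04 (SE, adjusted p = 1.2e-17). PFKP, the platelet form, measured 8.26, 8.28, 8.20 and 8.22 at P0, 8.65, 8.75, 8.66 and 8.67 at P3, 8.72, 8.61, 8.77 and 8.74 at P7 and 8.60, 8.67, 8.68 and 8.66 at P15, a rise at P3 of 0.44 ± 0.03 (SE, adjusted p = 4.7e-11) with no passing change afterwards. From P7 to P15 PFKP differed by -0.06 (adjusted p = 0.12), or by -0.09 (adjusted p = 0.012) without P7 replicate 2. The regulatory enzymes PFKFB3 and PFKFB4, which make and break the activator of phosphofructokinase, rose at P3 by 0.98 and 0.50. PFKFB3 ended 0.56 ± 0.04 (SE, adjusted p = 3.7e-13) above P0, and the end value of PFKFB4, -0.23 ± 0.08 (SE, adjusted p = 0.011), did not pass without P0 replicate 2 (-0.15, adjusted p = 0.061) or P15 replicate 4 (-0.17, adjusted p = 0.059).

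Aldolase splits the sugar into a pair of trioses. ALDOA, the main form, measured 10.03, 10.29, 10.01 and 10.06 at P0, 10.49, 10.65, 10.51 and 10.52 at P3, 10.58, 10.47, 10.65 and 10.58 at P7 and 9.65, 9.88, 9.92 and 9.79 at P15. ALDOC, the brain form, measured 4.65, 4.77, 4.45 and 4.60 at P0, 4.14, 4.40, 4.43 and 4.20 at P3, 5.61, 5.53, 5.64 and 5.61 at P7 and 2.35, 2.55, 2.86 and 2.45 at P15, a fall at P3, a rise of 1.30 ± 0.09 (SE, adjusted p = 1.1e-11) at P7 and a fall of 3.04 at P15. GPI, which turns glucose phosphate into fructose phosphate, rose in both early steps and ended 0.22 ± 0.05 (SE, adjusted p = 0.00037) above P0, while TPI1, the triose isomerase, peaked at P7 with 11.08 ± 0.06 (SD, n = 4 libraries) and ended 0.31 below P0. Other genes share 54.2% of the exon bases of ALDOA.

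All 6 genes of lower glycolysis fell from P7 to P15, by 0.40 to 1.88, where 40.1% of all tested genes fell. GAPDH, which makes bisphosphoglycerate and served as the reference gene of the study's other assays, measured 12.15, 12.23, 12.12 and 12.14 at P0, 12.42, 12.46, 12.42 and 12.41 at P3, 12.62, 12.55, 12.61 and 12.60 at P7 and 12.13, 12.24, 12.23 and 12.16 at P15. It rose by 0.27 at P3, a difference that turned to -0.01 (adjusted p = 0.77) under quantile normalization. GAPDH then rose by 0.17 at P7 and fell by 0.40 at P15, where its difference from P0 was 0.03 ± 0.04 (SE, adjusted p = 0.44), or 0.16 (adjusted p = 8.3e-05) under quantile normalization. ENO1, the main enolase, measured 11.73, 11.76, 11.74 and 11.74 at P0, 12.07, 12.09, 12.07 and 12.07 at P3, 12.29, 12.24, 12.33 and 12.29 at P7 and 11.63, 11.65, 11.66 and 11.63 at P15, and under quantile normalization its rise of 0.33 at P3 became -0.002 (adjusted p = 0.97). ENO2, the neuronal enolase, measured 6.64, 6.74, 6.58 and 6.58 at P0, 7.97, 8.05, 8.05 and 7.98 at P3, 8.11, 8.01, 8.04 and 8.02 at P7 and 6.73, 7.05, 7.20 and 6.87 at P15, so that it gained 1.38 ± 0.06 (SE, adjusted p = 2.7e-15) at P3 and lost most of it at P15.

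PGAM1, the phosphoglycerate mutase, measured 8.01, 8.15, 8.04 and 8.06 at P0, 8.48, 8.52, 8.45 and 8.43 at P3, 8.44, 8.49, 8.48 and 8.46 at P7 and 6.52, 6.65, 6.67 and 6.50 at P15. Its fall of 1.88 from P7 to P15 (adjusted p = 2e-23) was the largest of the lower enzymes and left it 1.48 below P0. PGK1, which makes the first ATP of the pathway, had means of 9.88 ± 0.08 at P0, 10.66 ± 0.02 at P3, 11.04 ± 0.03 at P7 and 9.20 ± 0.08 at P15 (SD, n = 4 libraries). PKM, the pyruvate kinase, differed from these in falling at P3 already, -0.40 ± 0.04 (SE, adjusted p = 5.7e-10), and it ended 1.35 below P0, from 5830 to 2290 CPM.

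At the end of the pathway, the 2 lactate dehydrogenase genes moved in opposite directions in the first and last steps. LDHA, whose subunit favours making lactate from pyruvate, measured 11.52, 11.74, 11.58 and 11.52 at P0, 12.18, 12.20, 12.20 and 12.17 at P3, 12.36, 12.38, 12.37 and 12.37 at P7 and 10.66, 10.60, 10.71 and 10.61 at P15. LDHB, whose subunit favours the reverse, measured 9.84, 9.81, 9.83 and 9.82 at P0, 9.36, 9.26, 9.38 and 9.31 at P3, 9.56, 9.61, 9.56 and 9.52 at P7 and 10.39, 10.27, 10.24 and 10.28 at P15. LDHA rose by 0.60 and 0.18 and then fell by 1.72 (adjusted p = 4.4e-12, 0.00048 and 4.7e-22). LDHB fell by 0.50 and then rose by 0.24 and 0.73 (adjusted p = 4.1e-12, 2.4e-06 and 3.5e-16). Neither gene had overlapping libraries in any of the 3 steps. Other genes share 33.4% of the exon bases of LDHB and 0.0% of those of LDHA.

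The lactate carriers went the same way as the dehydrogenases. SLC16A3, the carrier MCT4 that mainly exports lactate, measured 8.63, 8.77, 8.62 and 8.71 at P0, 9.36, 9.37, 9.37 and 9.35 at P3, 9.59, 9.40, 9.61 and 9.59 at P7 and 7.87, 8.04, 7.98 and 7.95 at P15, with a fall of 1.59 from P7 to P15. SLC16A1, the carrier MCT1, measured 7.82, 7.70, 7.84 and 7.77 at P0, 7.47, 7.38, 7.42 and 7.39 at P3, 7.75, 7.78, 7.67 and 7.69 at P7 and 7.87, 7.89, 7.88 and 7.88 at P15, and it ended 0.10 ± 0.03 (SE, adjusted p = 0.0092) above P0. Without P0 replicate 2 and P15 replicate 3 together, this last value was 0.07 (adjusted p = 0.052). PDK1, the kinase that shuts pyruvate out of the mitochondrial route, rose by 1.29 ± 0.06 (SE, adjusted p = 1.2e-14) at P3 and 0.24 at P7, fell by 1.22 at P15 and ended 0.31 ± 0.06 (SE, adjusted p = 8.4e-05) above P0.

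To compare relatives with each other, levels were expressed as CPM per kb of the canonical transcript, and each gene as a share of its set. LDHA held 66.4% ± 1.7 (SD, n = 4 libraries) of the lactate dehydrogenase sum at P0, 80.9% ± 0.6 at P3, 80.3% ± 0.36 at P7 and 42.6% ± 1.4 at P15, so that LDHB was the larger gene at P15 alone. HIF1A held 61.2% ± 0.64 of the sum with EPAS1 at P0, 42.4% ± 0.85 at P3, 39.8% ± 1.9 at P7 and 75.9% ± 0.95 at P15. EPAS1 was thus the larger of the pair at P3 and P7, and HIF1A at P0 and P15. HK2 grew from 5.28% ± 0.41 of the hexokinase pair at P0 to 15.9% ± 0.68, 12.7% ± 0.3 and 25.9% ± 1.5. With the length of all exons joined, an alternative added after the data were seen, the HK2 shares were 9.19%, 25.5%, 20.9% and 38.8%.

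Within the other sets the main gene stayed the same. SLC2A3 made up 4.84%, 11.3%, 12.7% and 0.0766% of its sum with SLC2A1 from P0 to P15, PFKM 12%, 8.25%, 9.24% and 17.9% of the phosphofructokinase sum, and ENO2 2.18%, 4.43%, 3.93% and 2.94% of the enolase sum. PFKP remained the largest phosphofructokinase gene, with 69.6% at P0 and 63.8% at P15. ALDOC was at most 3.15% and EGLN3 at most 3.98% of their pairs in any library. With the joined exon length, the ENO2 shares were 3.38%, 6.77%, 6.03% and 4.53%, and the EGLN3 share at P0 was 1.59% in place of 3.41%. SLC16A3 fell from 83.7% of its pair at P7 to 60.4% at P15, or from 70.9% to 42.1% with the joined exon length, so that the order of the lactate carriers at P15 depends on the length used.

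The shares of 11 genes were compared between P7 and P0, P15 and P7, and P15 and P0 with two-sided exact permutation tests of 4 against 4 libraries, whose smallest p is 0.0286. The shares were planned as a description without a test, so these tests are an addition. Groups of libraries that do not overlap always give the smallest p, so the tests restate that separation and add no support to it. All 3 tests of the HIF1A, HK2, LDHA, PFKM, PFKP, SLC2A3, SLC16A3, ALDOC and ENO2 shares gave that value (adjusted p = 0.0325 over 33 tests). The share of PFKL gave p = 0.486, 0.257 and 0.629 in the exact permutation tests, with differences of 0.34, -0.497 and -0.157 percentage points, and that of EGLN3 at P7 against P0 gave p = 0.0857.

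**Figure D5:**
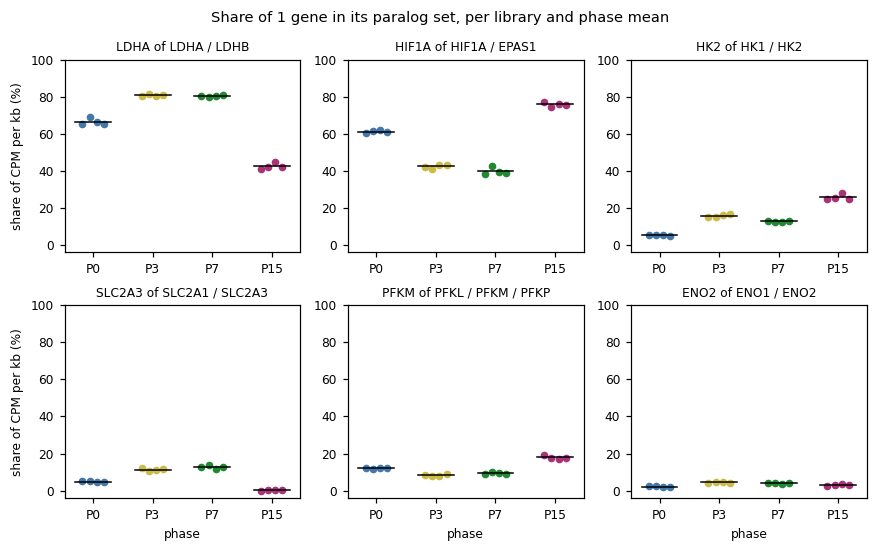
Share of 1 gene in the summed CPM per kb of its paralog set (vertical axis, %) in each library (points) by phase (horizontal axis), with the phase mean as a bar. LDHA drops below 50% at P15 with a mean of 42.6%, HIF1A rises to 75.9% and HK2 to 25.9%, while SLC2A3 falls to 0.0766%.

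Related genes outside the set were counted in lists chosen by function, with earlier results of these data known. Of 23 tested further hypoxia targets, 19 rose and 1 fell at P3, where 31.4% of all tested genes rose and 37.3% fell. At P7 against P3, 14 rose and 4 fell (30.3% and 28.0% of all), at P15 against P7, 6 rose and 14 fell (46.3% and 40.1% of all), and at P15 against P0, 14 rose and 8 fell (45.3% and 40.9% of all). Their medians in these comparisons were 0.50, 0.26, -0.31 and 0.40. Large changes at P15 against P0 were the rises of DDIT4 (3.27), an inhibitor of the growth kinase mTOR, and P4HA3 (2.78), another prolyl hydroxylase subunit. DDIT4 had means of 6.39 ± 0.13 at P0, 6.89 ± 0.09 at P3, 7.69 ± 0.18 at P7 and 9.66 ± 0.07 at P15 (SD, n = 4 libraries). It rose in every step, as STC1 did, but its largest step was the last (1.97) and that of STC1 the first (3.19). BHLHE41, a transcriptional repressor singled out after its value was seen, was the target that fell at P3, by 2.69. Of 12 tested further HIF regulators, 5 rose and 4 fell from P0 to P15 (45.3% and 40.9% of all), with differences between -0.62 and 0.65. The 3 largest differences were those of SIAH2, RBX1 and ELOC. SIAH2, a ubiquitin ligase, rose by 0.65, and RBX1 and ELOC, parts of the VHL ligase, fell by 0.62 and 0.57.

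The neighbouring routes of sugar and pyruvate gave mixed counts from P0 to P15, to be read against the 45.3% of all tested genes that rose and the 40.9% that fell. Among 8 tested further glycolytic enzymes 2 rose and 4 fell, where HKDC1, a hexokinase-like enzyme, changed by -1.32, ADPGK, an ADP-dependent glucokinase, by -0.52 and PGM2, a phosphoglucomutase, by -0.52. Of 7 tested transporters 2 rose and 4 fell. SLC2A10, a transporter of the glucose family, had a mean of 4.52 at P0 and was at 0 in all 4 P15 libraries, where 3 counts would be 0.0667 to 0.0838 CPM. SLC2A6 and SLC16A7 fell by 1.91 and 1.66. Of 12 tested genes of pyruvate dehydrogenase and mitochondrial pyruvate entry 6 rose and 4 fell. PDHB, a subunit of pyruvate dehydrogenase, rose by 1.04 ± 0.04 (SE, adjusted p = 1.2e-16), MPC2, a mitochondrial pyruvate carrier, rose by 0.58, and the kinase PDK3 fell by 0.66. Within the pyruvate dehydrogenase complex, PDHA1 also rose, by 0.44, while PDHX, DLAT and DLD fell by 0.27, 0.31 and 0.30. Of 7 tested pentose phosphate enzymes 3 rose and 2 fell, among them TALDO1, which fell by 1.14, and PGD, which rose by 0.47.

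Rows named as pseudogenes held few counts. There were 95 such rows for 14 of the 46 genes. Summed by gene they came to at most 1.116% of the parent gene's CPM (EGLN3), with 0.162% over 39 rows for GAPDH and 0.351% for LDHA. How reads that fit several places were counted is not given, so reads of such copies assigned to the parent gene were not tested.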

How the data were processed

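RNA-sequencing values of 16 libraries of T24 cells and the GRC1 line, 4 per phase, were analysed. The authors aligned paired-end reads to GRCh38 with STAR 2.6.1a, counted them per gene with featureCounts and deposited log2-transformed CPM after adding 1, kept to 2 decimals. No trace was seen in the deposited table of the quantile normalization and median centring that their methods also name. The annotation release and strand setting are not given in the sources used here.

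For the tests, limma 3.58.1 (R 4.3.3) fitted a mean for each phase to the 16 libraries together, with a variance trend and Benjamini-Hochberg adjustment over 13249 genes with a mean above 1 CPM. The procedure was tested on simulated data. Differences are on the log2(CPM + 1) scale, which understates changes of low genes. Library totals came from the spacing of the lowest values and cover counting error only. Tables were made in Python 3.11.15 with pandas 2.3.3, and gene overlaps and lengths come from GENCODE on GRCh38. The files of the study state no pairing of replicates.

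The members and lists were chosen with earlier results of these data known. Values in every library are given for HIF1A, EPAS1, STC1 and GAPDH, for the called genes of each role with the largest rise and fall at P15 against P0, for the 3 largest changes of each step, and for paralog sets; context lists give counts and up to 3 called genes. Some single genes of the context and marker lists are not reported here. The alternatives were offsets of 0.1 and 5 CPM, other filters, quantile or median scaling, no variance trend, pairs of phases alone, a 2-fold threshold, a replicate block and each library left out.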

Additional observations from a re-analysis of the deposited data

Results flagged for a closer look

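Among the 184 groups of 4 libraries (46 genes in 4 phases), 9 had a highest or lowest library whose gap to the nearest other library took up more of the range of the group than Dixon's critical value allows, and about 1 in 20 groups, here 9.2, is expected by chance. P3 replicate 2 was the highest library for ADM (0.83 of the range), GPI (0.83), PLOD2 (1.0) and ENO1 (1.0). The P3 values of PLOD2 were 9.59 in 3 libraries and 9.60 in replicate 2, a difference of 1 rounding step, so that this ratio carries little. P3 replicate 1 was the lowest for ARNT (0.94), and P0 replicate 2 was the highest for PFKFB4 (0.87). P7 replicate 2 was the lowest for ANGPTL4 (0.86) and SLC16A3 (0.9), and P15 replicate 3 was the highest for PKM (1.0), at 11.25 against 11.13 in the other 3.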

How the results depend on the processing

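Over the 45 tested genes, 4 comparisons and 27 alternatives, 4848 values were obtained. Of these, 4780 kept a call in the same direction or again gave none, 48 lost the call, 18 gained one and 2 reversed. Direction was not compared where neither fit gave a call. Both reversals came under quantile normalization at P3 against P0, for GAPDH (-0.0114) and ENO1 (-0.002), and the cause was not tested. The counts stayed within 1.5 times the given ones except with a 2-fold threshold, which by construction left 11 up and 1 down at P3 against P0, 2 up and 0 down at P7 against P3, 2 up and 19 down at P15 against P7, and 6 up and 10 down at P15 against P0. Replicate numbers did not pair the libraries (correlations of deviations from -0.15 to 0.22 over 24 pairs by the description, with 1 above 0.1), and with a replicate block by either numbering the numbers that rose and fell were again 35 and 9, 27 and 4, 11 and 32, and 20 and 24. Scaling moved the median of all genes by under 0.1. KDM3A, at P7 against P3, passed without P0 replicate 2 or 3 (adjusted p = 0.016 and 0.041), and so did HK1 and PFKFB3 without P7 replicate 2 (adjusted p = 0.049 and 0.044). Depth limits CA9, CA12 and EGLN3, which lie near 1 CPM.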

Other observations

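The 4 P15 libraries lay in the same order for many of these genes, an order picked after the values were seen. For 15 of the 45 tested genes (33.3%) the level was lowest in replicate 1, then replicate 4, then replicate 2, and highest in replicate 3, an order that 6.08% of all tested genes had. They were ADM, ALDOA, ALDOC, ANGPTL4, ANKRD37, BNIP3, CA12, ENO2, GPI, HK2, LOX, NDRG1, PFKL, PFKP and TPI1. The list holds genes that had fallen from P0 to P15, such as LOX (1.02, 1.17, 1.40 and 1.68 in that order), and genes that had risen, such as ANGPTL4 (5.22, 5.87, 6.16 and 6.71). CA9, which was too low to be tested, gave 0.32, 0.95, 1.19 and 1.93. Of the 23 further hypoxia targets, BHLHE40, DDIT4, ERO1A, HILPDA and PPFIA4 had this order (21.7%). The titles give P15 replicate 1 a sample number apart from those of the other 3, and the same holds for P3 replicate 2, the highest P3 library for 21 of the 45 genes. The part of this numbering in the order was not tested.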
